A study of Saccharomyces cerevisiae with 72 samples.

Results

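Strain D (PPH3-AID, sld3-R(2A)) was compared with strain B (PPH3, sld3-R(2A)), so that the 2 strains differ in the phosphatase subunit Pph3 and share the mutant form of the initiation factor Sld3. The members were chosen by label and not by value: the 22 libraries taken at the same 11 times, from 15 to 80 minutes after release from G1, out of 72 samples in the series. Both strains are Saccharomyces cerevisiae of the W303 background, mating type a, with 6 alleles in common. SWE1 was deleted (swe1delta::TRP1), and CSE4 was deleted (cse4delta::NatMX) and supplied as the tagged copy leu2::CSE4-HA6::LEU2. Cdc55 carried a degron (CDC55-AID::KanMx), and the F-box protein for it came from his3::PGPD1-osTir1::HIS3, under the promoter the allele names PGPD1. Sld3 was the tagged mutant sld3-R(2A)-13myc::KanMx. Strain D carried PPH3-AID::HphMx in addition. Cultures were arrested with 5 ug/ml alpha factor, treated with 1 mM auxin (IAA) during 30 minutes at 37 degrees C, washed and released into medium with IAA. Both strains therefore lacked Swe1, had their only Cse4 as a tagged copy and had Cdc55 exposed to auxin. Any effect of Pph3 depletion is thus seen in cells whose Cdc55 was also set up for degradation, and all 4 strains with replication tables carried CDC55-AID. The allele of Pph3 and the growth of a single culture cannot be told apart. Each strain and minute had 1 library, so no difference below has a replicate check or a test. The tables hold DNA ratios alone, and neither the loss of the Pph3 protein nor the Sld3 allele could be checked in them.

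Pph3 is the catalytic subunit of the phosphatase PP4, and Cdc55 is a regulatory subunit of PP2A. Replication in yeast starts at origins, where the loaded Mcm helicase is switched on by 2 kinases: cyclin-dependent kinase phosphorylates Sld3 and Sld2 so that they bind Dpb11, and the Dbf4-dependent kinase phosphorylates the Mcm complex. Phosphatases can reverse such steps. Origins fire in a reproducible order, which is read from DNA copy number: a stretch that has been copied counts double against the G1 genome. An auxin-inducible degron (AID) is a tag that sends its carrier to the proteasome when auxin and the plant F-box protein osTir1 are present.

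Each table lists, for bins of 1 kb, the authors' ratio of S-phase to G1 reads, multiplied by a scale factor of the library. On this scale a ratio near 1 stands for unreplicated and near 2 for replicated DNA. The tables of strains B and D listed 11304 to 11323 bins, and the 11284 bins listed in all 22 were used. The noise of a single bin, estimated from the differences between neighbours after division by the library median, was 0.0425 to 0.0634. Read counts are not listed and the depth is unknown.

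Bulk replication in strain D lagged strain B from 35 to 60 minutes. The scale factor of strain B was 1.049, 1.085, 1.165, 1.244, 1.378, 1.573, 1.732, 1.823, 1.921, 2.0 and 2.0 at 15, 20, 25, 30, 35, 40, 45, 50, 60, 70 and 80 minutes. At the same minutes that of strain D was 1.111, 1.039, 1.157, 1.275, 1.333, 1.425, 1.588, 1.752, 1.843, 2.0 and 1.98. Strain D was thus above strain B at 15 and 30 minutes, equal at 70 minutes and below at the other 8 times, by most at 40 minutes with -0.148 and at 45 minutes with -0.144. The factor went from 25% to 75% of a full doubling in 15.8 minutes in strain B and in 21.0 minutes in strain D. Strain D passed the lower level earlier, at 28.9 minutes against 30.2 in strain B, and the upper level later, at 49.9 against 46.0 minutes. Factors of single libraries limit these values. On the deposited scale the median of the 1127 latest bins was 1.302, 1.266 and 1.241 in strain D at 30, 35 and 40 minutes, a fall at times when copy number can stay or rise. In strain B these bins had 1.190, 1.253 and 1.224, so a smaller fall, between 35 and 40 minutes, occurred there too.

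**Figure D1:**
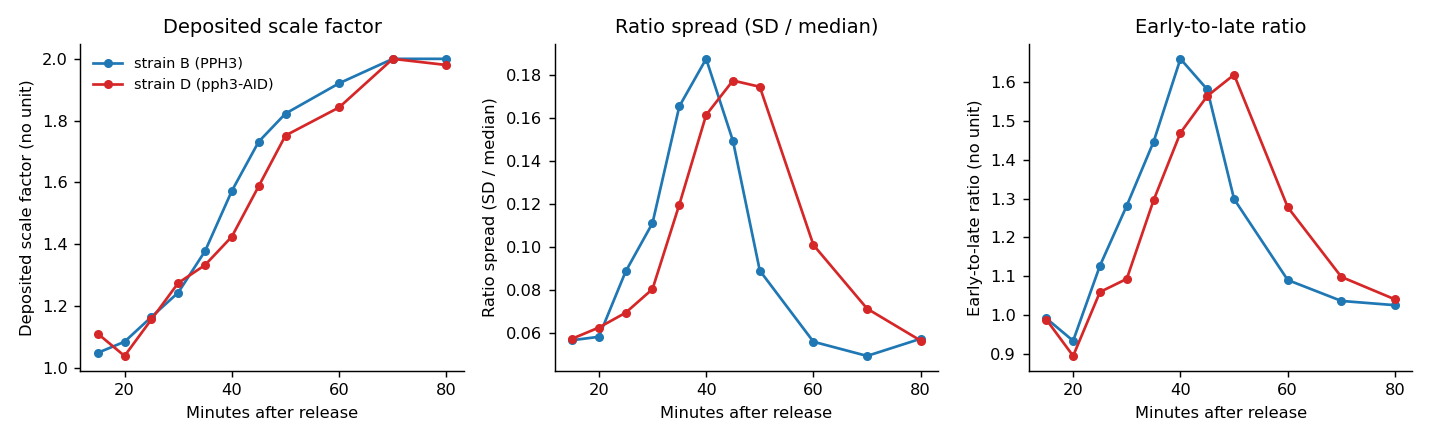
Scale factor as deposited, ratio spread (standard deviation over bins divided by the median) and early-to-late ratio (median ratio of the earliest 10% of bins over that of the latest 10%, in the order of strain B) against minutes after release, 1 library per point, strain B in blue and strain D in red. Strain D reaches its largest spread at 45 minutes and its largest early-to-late ratio at 50 minutes, against 40 minutes for both in strain B.

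The contrast between early and late DNA, in which the scale factor cancels, arose later in strain D, reached nearly the same size and lasted longer. Early and late bins are here the 10% of bins that replicated first and last in strain B. Their ratio in strain B was 1.127 at 25 minutes, 1.282 at 30, 1.447 at 35, 1.661 at 40, 1.582 at 45, 1.299 at 50, 1.090 at 60 and 1.036 at 70. In strain D it was 1.059, 1.093, 1.296, 1.470, 1.565, 1.620, 1.278 and 1.098 at these times. Strain D was below strain B up to 45 minutes and above it from 50 minutes on. The mean minute of this curve, weighted by the excess over 1, was 42.5 in strain B and 48.6 in strain D, 6.02 minutes later. With early and late bins taken from strains A (PPH3 SLD3) and C (PPH3-AID SLD3), which are outside the comparison, the lag was 6.35 minutes. At 20 minutes the ratio was 0.933 in strain B and 0.894 in strain D, so early bins were then slightly under-represented in both.

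Bin by bin, strain D was lower at 40 minutes in 82.8% of bins and at 45 minutes in 81.2%, with median differences of -0.149 and -0.153 in the ratio. At 30 minutes it was lower in only 37.4% of bins. To set the scale factors aside, each library was divided by its own median and averaged over 5 kb, and a bin was called when the strains then differed by at least 1.1-fold. At 15 minutes, with little DNA replicated, 0.213% of bins were called higher and 0.399% lower in strain D, which is the background of the comparison. At 20 minutes 0.506% were higher and 1.07% lower, and at 25 minutes 1.17% and 3.43%. Lower bins then came first: 16.9% at 30 minutes and 10.2% at 35 minutes, against 2.59% and 3.73% higher. Higher bins followed, with 18.3% at 40 minutes and 25.6% at 45 minutes against 4.74% and 3.12% lower. At 50 minutes both directions held 21.3% (higher) and 21.9% (lower), and by 60 minutes 15.2% were lower and 5.24% higher. At 70 minutes 1.13% were higher and 2.02% lower, and at 80 minutes 1.5% and 0.799%.

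Early and late DNA took part in this in opposite ways. In the earliest decile of strain B the median-divided ratio at 30 minutes was 1.257 in strain B and 1.120 in strain D, so early DNA stood out less in strain D. At 50 minutes the same decile was back at 1.075 in strain B and still at 1.238 in strain D. The latest decile was at 0.796 in strain B and 0.908 in strain D at 40 minutes, and at 0.828 and 0.764 at 50 minutes. At 60 minutes it stood at 0.946 in strain B and 0.848 in strain D, and at 70 minutes at 0.980 and 0.946. On the deposited scale the latest decile had reached 1.819 at 60 minutes in strain B and 1.577 in strain D.

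Each profile of strain D was also placed on the course of strain B, at the minute with the smallest root mean square difference of 5-kb profiles. The libraries of strain D at 25, 30, 35 and 40 minutes were most like strain B at 23.0, 26.5, 31.5 and 37.5 minutes, lags of 2.0, 3.5, 3.5 and 2.5 minutes. Those at 45, 50, 60 and 70 minutes were most like strain B at 41.0, 43.0, 51.0 and 58.5 minutes, lags of 4.0, 7.0, 9.0 and 11.5 minutes. The lag in shape, which uses no scale factor, was thus 2.0 to 4.0 minutes from 25 to 45 minutes and longer at the next 3 times. The lag at 70 minutes is poorly determined. There the root mean square difference was 0.0385 at the best minute and 0.0433 at the same minute, and at 80 minutes 0.0372 and 0.041. At 15, 20 and 80 minutes the lag was -1.5, 0.0 and 6.5 minutes. Flatness does not set 20 minutes apart from 70 minutes. The ratio spread was 0.0581 in strain B and 0.0624 in strain D at 20 minutes, and 0.0492 and 0.0712 at 70 minutes. The match was not exact. The remaining difference was 0.0549 to 0.0662 from 30 to 50 minutes in 4 of the 5 libraries and 0.0499 at 35 minutes, against 0.0335 at 15 minutes.

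Trep, the replication time assigned to each bin, was read where the 5-kb mean ratio, made monotone in time, crossed 1.5. It was obtained for 11265 bins. The median was 39.32 minutes in strain B and 44.04 in strain D, and the bins from the 5th to the 95th percentile replicated between 29.4 and 49.1 minutes in strain B and between 31.7 and 58.4 in strain D. The difference per bin had a median of 4.51 minutes (quartiles 2.57 and 7.1), with a standard deviation of 1.46 minutes over the medians of the 16 chromosomes. That spread runs along the genome and not between cultures. Trep was later in strain D in 97.2% of bins and earlier in 319 bins (2.83%). It was later by more than 10 minutes in 933 bins (8.28%). Over bins, which are not independent, Trep of the 2 strains correlated at r = 0.929, so the order was largely kept. With the scale factors of both strains replaced by their mean at each minute, which gives both the same bulk course, the median difference was 2.45 minutes. Trep was then later in strain D in 85.3% of bins and earlier in 14.7%.

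With the deposited factors, the median delay by decile was longer the later DNA replicated in strain B. By decile of Trep in strain B, with 1126 or 1127 bins each, the median delay was 2.47, 3.1, 3.38, 4.46, 4.47, 5.14, 5.47, 6.88, 7.16 and 7.48 minutes from the earliest to the latest. The gap between the latest and the earliest decile was 5.01 minutes. Strain B enters both the order and the difference, so noise in strain B alone would lower this gap. With the order of strains A and C the gap was 5.42 minutes, from 2.48 minutes in the earliest decile to 7.9 in the latest. With common factors the deciles no longer rose throughout: the delay was 2.75 minutes in the earliest decile, 1.46 in the fifth and 5.39 in the latest, a gap of 2.64 minutes. Without smoothing the gap was 3.09 minutes. It was 2.28 minutes without the 50-minute libraries and 3.24 minutes without those of 60 minutes. Peaks and minima of the profile did not follow the rise over deciles, but places chosen in strain B carry its noise. Such noise alone would raise the delay at peaks and lower it at minima, and its share was not tested. The 80 peaks of strain B described below had a median Trep of 32.9 minutes in strain B and a median delay of 5.31 minutes. At 79 minima these values were 45.65 and 3.57 minutes.

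**Figure D2:**
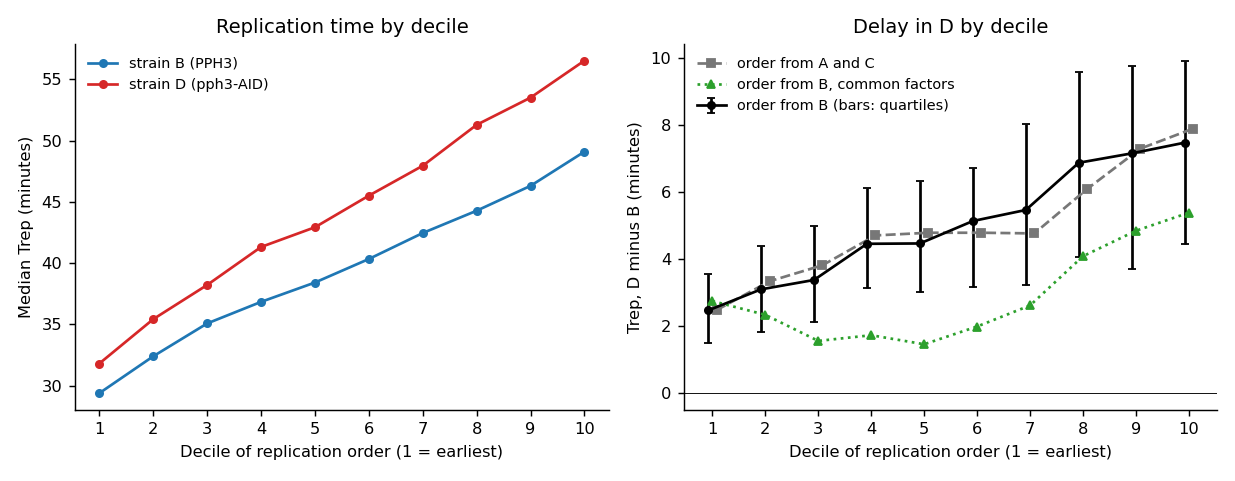
Left, median Trep in minutes by decile of replication order in strain B, strain B in blue and strain D in red. Right, median difference of Trep (D minus B, minutes) by decile, in the order of strain B with the quartiles of bins as bars, in the order of strains A and C, and with common scale factors. The difference grows from 2.47 to 7.48 minutes with the deposited factors, and with common factors it is smallest in the fifth decile.

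With the deposited factors, a single stretch of DNA also took longer in strain D to go from mostly unreplicated to mostly replicated in the culture. The time from 25% to 75% of a full doubling had a median of 12.0 minutes in strain B and 17.9 in strain D, 5.81 minutes longer per bin. In the earliest decile it was 9.93 and 12.4 minutes, and in the latest 21.8 and 37.4 minutes. The scale factors bear on this value directly: with common factors the median difference was 3.13 minutes, and in the earliest decile the times were 10.3 and 11.1 minutes. In the next 2 deciles the direction turned, with 11.27 minutes in strain B and 10.79 in strain D, then 12.03 and 11.8. In the latest decile the times with common factors were 17.2 minutes in strain B and 36.5 in strain D. On the deposited scale the latest bins of strain D passed the lower of these levels by 30 minutes, before the fall of their ratio described above. With common factors they stood just above that level, at 1.287, 1.289, 1.309 and 1.348 at 30, 35, 40 and 45 minutes. The long time in strain D thus includes a stretch of little change.

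Chromosomes differed in how much they were delayed. Chromosome IV, the longest, had a median Trep of 43.3 minutes in strain B and 50.0 in strain D, a median delay of 6.99 minutes. Chromosome XIV followed with 6.05 minutes. The smallest delays were 2.05 minutes on chromosome I, 2.14 on VI and 2.49 on III, which are the 3 shortest. Next came V with 2.83, X with 2.91, XIII with 3.82, XII with 3.91 and IX with 3.96 minutes. The remaining chromosomes, II, VII, VIII, XI, XV and XVI, had delays between 4.49 and 5.26 minutes. Bins delayed by more than 10 minutes made up 19.6% of chromosome IV, 16.7% of XIV and 13.6% of XII, and 0 bins of III, V, IX and X, against 8.28% of all bins.

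Over the 16 chromosomes the delay had a Spearman correlation of 0.586 with length, taken as the last listed bin, as a description of these 2 cultures. The chromosome medians of Trep in strain B correlated with the delay at 0.658, and with length at 0.3. Within deciles of replication time, the delay less the genome-wide median of the decile still ran from -1.55 minutes on chromosome VI to 1.32 on IV, and its correlation with length was 0.641. With the deciles of strains A and C the ends of the range were -1.57 on VI and 1.56 on IV. Common factors left delays of 1.11 minutes on III to 4.52 on IV. Without the 30 kb at each chromosome end, the range over chromosomes was 4.35 minutes in place of 4.94. Dividing each strain by the mean of its own 15- and 80-minute profiles lowered the range to 3.53 minutes, from 2.99 on III to 6.52 on IV. The Spearman correlation of the delay with length was then 0.541.

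The chromosomes also parted in the ratios. At 50 minutes chromosome IV had a median-divided ratio of 0.957 in strain B and 0.865 in strain D, and chromosome XIV 0.948 and 0.870. On chromosome X the values were 1.026 and 1.157, on V 1.037 and 1.132, on III 1.034 and 1.126, and on VI 0.995 and 1.092. Strain D thus had the wider range of chromosome medians at this time. At 40 minutes chromosome X was at 1.128 in strain B and 1.120 in strain D, and chromosome IV at 0.888 and 0.952.

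The same depletion with wild-type SLD3 (strain C minus strain A, which share no library with this comparison) gave chromosome delays of 2.62 to 4.86 minutes. Chromosomes X, III, VI and V were lowest there with 2.62, 2.65, 2.69 and 2.71, and XIV and IV highest with 4.86 and 4.60. Over the 16 chromosomes the pairs of delays correlated at a Spearman rho of 0.897. Over 11262 bins, which are not independent, they correlated at r = 0.639, and the delay was larger in sld3-R(2A) cells in 69.1% of bins. Whether the effects differ could not be tested.

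**Figure D3:**
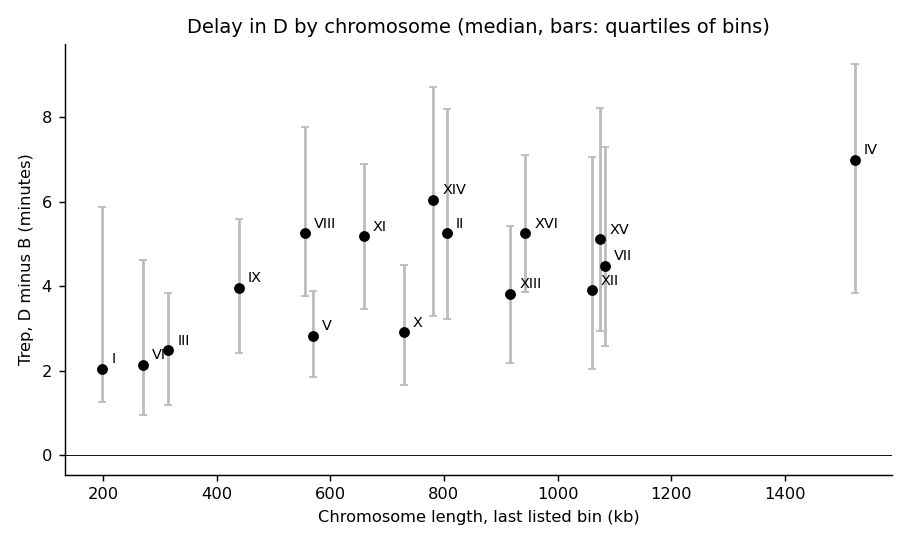
Median Trep difference (D minus B, minutes) of each of the 16 chromosomes against its length in kb, with bars for the quartiles of its bins. The points lie between 2.05 minutes on chromosome I and 6.99 on chromosome IV, and chromosomes V and X lie below others of their length.

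The largest delays were in late stretches inside the arms of chromosomes. The longest run of neighbouring bins delayed by more than 10 minutes covered 52 bins of chromosome XII, 857001 to 909000 in the sacCer3 build, with a median Trep of 46.4 minutes in strain B and 61.8 in strain D. Further runs covered 37 bins of chromosome VII (86001 to 123000) and 28 bins of chromosome XIV (190001 to 218000). The median delays of the 3 runs were 14.2, 13.4 and 12.5 minutes. Runs were picked by length after their values were seen, and neighbouring bins share data through the running mean. With common factors their delays were 11.65, 11.06 and 10.14 minutes.

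By the rule for named loci, the most delayed bin lay at 877001 to 878000 on chromosome XII, at the small gene YLR379W-A. Its 5-kb ratio in strain B was 1.218, 1.337, 1.477, 1.614, 1.88 and 2.046 at 30, 40, 45, 50, 60 and 70 minutes. In strain D it was 1.291, 1.214, 1.208, 1.231, 1.349 and 1.684. The locus was thus close to its 40-minute level in strain D at 50 minutes, when it was mostly replicated in strain B, and Trep was 45.8 and 64.5 minutes.

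The next loci behaved alike. At 60001 to 61000 on chromosome VII, within SEC15, which encodes a subunit of the exocyst, the ratio at 50 minutes was 1.707 in strain B and 1.394 in strain D, and the delay 17.1 minutes. At 110001 to 111000 on the same chromosome, beside POX1 (the acyl-CoA oxidase of peroxisomes), it was 1.686 and 1.228, with a delay of 16.5 minutes. At 176001 to 177000 on chromosome XIV, within RAD50, a member of the Mre11 complex of double-strand break repair, it was 1.729 and 1.292, with a delay of 16.1 minutes. At 696001 to 697000 on chromosome IV, within the protein kinase gene KIN1, it was 1.646 and 1.36, with a delay of 16.1 minutes. At all 5 loci strain D was below strain B at 45, 50, 60 and 70 minutes. It was also below at 80 minutes, with 1.782 to 1.87 in strain D and 1.972 to 2.064 in strain B. After division by the library median, strain D was below at all 5 at 15 minutes too, with little DNA replicated. The values were then 0.953 to 0.979 in strain D and 1.007 to 1.043 in strain B. Division by the 15- and 80-minute profiles left delays of 13.8 minutes on XII, 8.58 at SEC15, 12.8 at POX1, 11.3 at RAD50 and 11.4 at KIN1.

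At the other extreme, bins that replicated earlier in strain D lay largely near chromosome ends. Of the 319 such bins, 176 (55.2%) were within 30 kb of an end, as were 7.59% of all bins and 35 of the 933 bins delayed by more than 10 minutes (3.75%). The 855 bins of chromosome ends with a Trep had a median delay of 2.03 minutes, and other bins one of 4.7 minutes. The 5 named loci of least delay were at 13001 to 14000 on chromosome I (TDA8), 24001 to 25000 on XII (HSU1), 765001 to 766000 on XIV (PDR18, a drug transporter gene), 22001 to 23000 on VII (FZF1, which encodes a transcription factor) and 1508001 to 1509000 on IV (STL1, a glycerol transporter gene). Their differences were -8.06, -5.48, -4.54, -4.37 and -3.84 minutes.

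At these 5 loci the strains also differed at the start or the end of the course. At TDA8 the ratio at 45 minutes was 1.353 in strain B and 1.559 in strain D, and at 15 minutes it was 1.041 and 1.199. After division by the library median, strain D was above strain B at 4 of the 5 at 15 minutes, STL1 being the exception, and at all 5 at 80 minutes. After division by the mean 15- and 80-minute profile of each strain the differences were -1.25 minutes at TDA8, 0.85 at HSU1, 1.79 at PDR18, -1.17 at FZF1 and 3.71 at STL1, so 3 of the 5 changed sign. The part of the G1 denominators in this was not tested further.

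Peaks of the profile are local maxima of copy number, and 80 were called in the 40-minute library of strain B, the one with the largest spread. Not all were early: their Trep in strain B ran from 24.5 to 42.2 minutes, and the median of all bins was 39.3. At 5 of the 80, the mean Trep 10 to 15 kb away was earlier in strain B than that of the peak. To count as a peak, a 5-kb mean had to be the highest within 10 kb either way and to exceed 3 times the bin noise in prominence. The 45-minute library of strain D gave 55 peaks by the same rule. Of these, 17 lay within 5 kb of a peak of strain B, which is 30.9% of the peaks of strain D and 21.2% of those of strain B. Strain A gave 111 peaks, of which 33.3% lay within 5 kb of a peak of strain B, and strain C 92, of which 44.6% did. Of the peaks of strain B, 46.2% lay near one of strain A and 51.2% near one of strain C.

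At the 80 peaks the median-divided 5-kb ratio of strain D was below that of strain B up to 40 minutes and slightly above it at 50 minutes. The mean over peaks in strain B was 1.097 at 25 minutes, 1.164 at 30, 1.213 at 35, 1.206 at 40, 1.116 at 45, 1.062 at 50 and 1.040 at 60. In strain D it was 1.035, 1.049, 1.111, 1.148, 1.120, 1.088 and 1.021. Strain D was lower at 75 of 80 peaks at 30 minutes and at 78 at 35 minutes, against 54.4% and 54.1% of all bins. It was at least 1.1-fold lower at 47 peaks at 30 minutes, against the 16.9% of bins given above. Most peaks are early, so all bins are not a like set. Decile 2 of strain B, with a median Trep of 32.4 minutes, had medians of 1.133 in strain B and 1.013 in strain D at 30 minutes. The lowering at 30 minutes was thus not particular to peaks. At 50 minutes 17 peaks were at least 1.1-fold higher and 9 lower, against 21.3% and 21.9% of bins. Trep at peaks had a median of 32.9 minutes in strain B and 38.1 in strain D, and it was later in strain D at 79 of 80, near the 97.2% of all bins.

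Peaks chosen in strain B carry its noise. The mean profile of strain B rose in a step over just the 5 bins averaged for the call, by 0.062 at 40 minutes, and also by 0.023 at 15 minutes and 0.027 at 80 minutes. In strain D the step was between -0.006 and 0.005 at all times. At the 111 peaks of strain A the step of strain B was at most 0.019, at 35 minutes. The peaks of strains A and C therefore stand beside those of strain B.

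**Figure D4:**
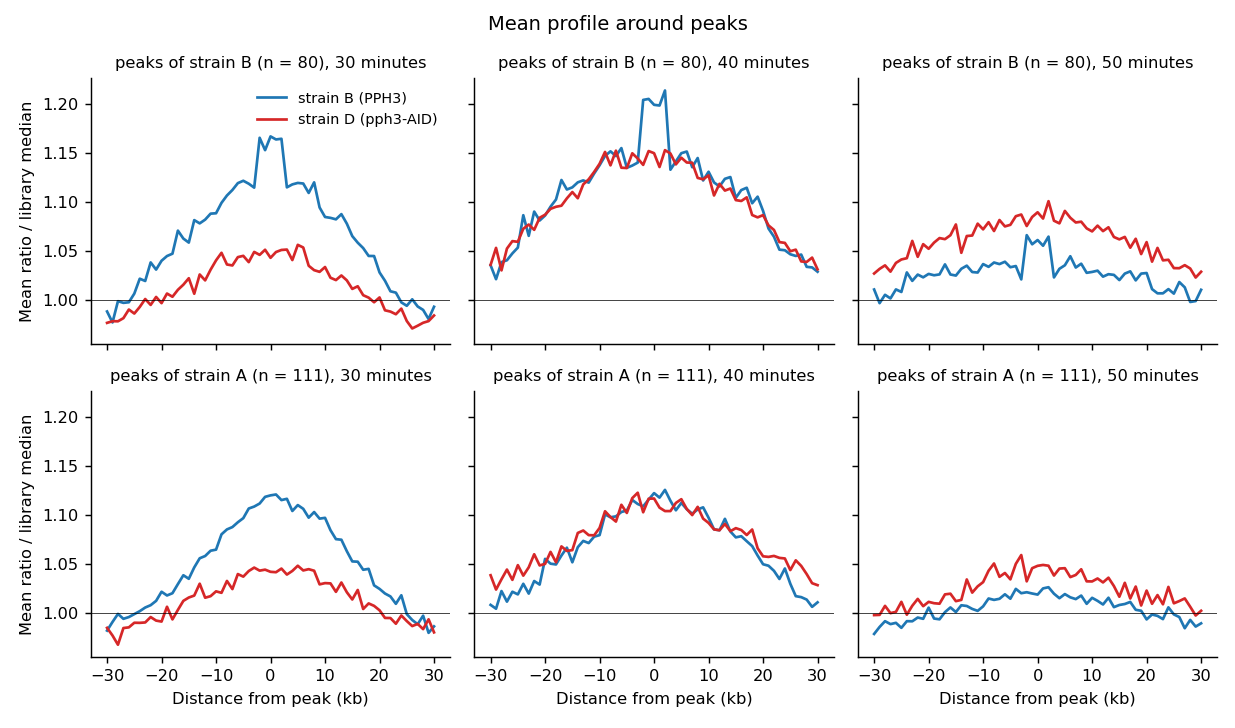
Mean ratio divided by the library median within 30 kb of the 80 peaks of strain B (top) and of the 111 peaks of strain A (bottom) at 30, 40 and 50 minutes, strain B in blue and strain D in red. At 30 minutes strain D is lower around both sets of peaks and at 50 minutes it is higher, and the step of strain B over the central 5 bins is larger at its own peaks.

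At the peaks of strain A the difference was of the same direction and smaller. The mean was 1.118 in strain B and 1.045 in strain D at 30 minutes, and 1.157 and 1.091 at 35 minutes. It was 1.023 and 1.046 at 50 minutes. Strain D was at least 1.1-fold lower at 43 of 111 peaks of strain A at 30 minutes and at 41 of 92 peaks of strain C, against 16.9% of all bins. All bins are not a like set here either, since early bins as a whole were lowered at 30 minutes. At 50 minutes strain D was at least 1.1-fold higher at 31 and lower at 27 peaks of strain A, and higher at 28 and lower at 12 of strain C, against 21.3% and 21.9% of all bins. Trep was later in strain D at 110 of 111 peaks of strain A, by a median of 5.17 minutes, and at 91 of 92 peaks of strain C, by 4.7 minutes. These shares are near the 97.2% of all bins, whose median delay was 4.51 minutes. The median Trep of these peaks in strain B was 35.5 minutes (peaks of A) and 34.0 minutes (peaks of C). Deciles 2, 3 and 4 of strain B, with 32.4, 35.1 and 36.8 minutes, had smaller median delays of 3.1, 3.38 and 4.46 minutes. Whether peaks differ from other bins of their timing was not tested.

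The local contrast, the value at a peak less the mean 10 to 15 kb away, reached a lower maximum in strain D at the peaks of strains A, B and C. At the peaks of strain A it was highest at 35 minutes in both strains, with 0.053 in strain B and 0.026 in strain D. At those of strain C it reached 0.074 at 25 minutes in strain B and 0.036 at 35 minutes in strain D. At the peaks of strain B it reached 0.084 and 0.032. After division by the 15- and 80-minute profiles the highest values were 0.061 and 0.033 at the peaks of strain B, 0.047 and 0.021 at those of A, and 0.068 and 0.029 at those of C. At the 55 peaks of strain D itself the corrected values were 0.046 in strain B and 0.040 in strain D. Strain D thus had the lower maximum at every one of the 4 sets with this correction. Without it, strain D was higher at its own peaks, with 0.073 at 45 minutes, the time of the call, against 0.048.

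In Trep, the flanks of the peaks of strain A lagged the peak by a median of 1.73 minutes in strain B and 1.09 in strain D, and those of strain C by 2.09 and 1.54 minutes. At the 55 peaks of strain D the order was the opposite, with 1.29 minutes in strain B and 2.02 in strain D. The contrast between the earliest and the latest 10% of bins, by comparison, reached 1.661 in strain B and 1.620 in strain D. At the 80 peaks of strain B, the uncorrected local contrast of strain A reached 0.093 and that of strain C 0.061.

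**Figure D5:**
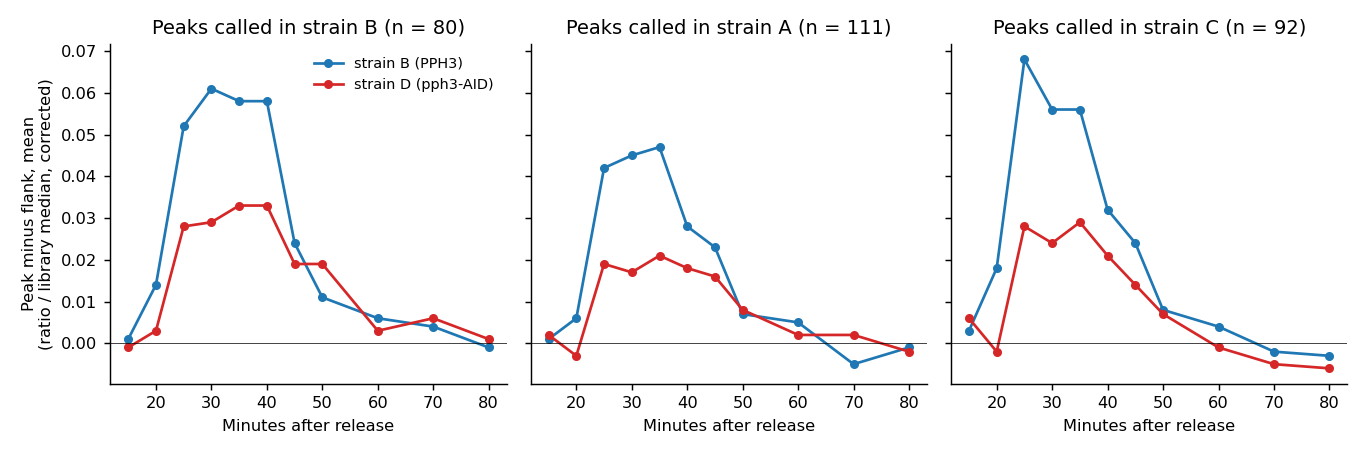
Mean local contrast (peak less flanks at 10 to 15 kb, in ratios divided by the library median, after division by the mean 15- and 80-minute profile of the strain) against minutes after release, at the peaks of strains B, A and C. Strain D in red stays below strain B in blue from 20 to 45 minutes in each panel, with maxima of 0.033, 0.021 and 0.029 against 0.061, 0.047 and 0.068.

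With the deposited factors, early peaks were delayed least. The peaks of strain B were split in 3 by the mean Trep of strains A and C. The delay had a median of 3.7 minutes in the 27 earliest, 4.76 in the next 26 and 8.98 in the 27 latest. This split was not repeated with common factors. Over all bins in the order of strains A and C, common factors gave delays of 2.61 minutes in decile 1, 1.53 in decile 5 and 2.34 in decile 7. Those delays did not rise with replication time over that span. The earliest set had means of 1.279 in strain B and 1.118 in strain D at 30 minutes, and of 1.095 and 1.210 at 50 minutes. The latest set had means of 1.059 and 1.004 at 30 minutes and 1.021 and 0.955 at 50 minutes, so in strain D these places ended below the genome median. Of the earliest set 9 had a peak of strain D within 5 kb, of the next 6 and of the latest 2.

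Single peaks differed widely. The peak at 64001 to 65000 on chromosome III, beside STE50, an adaptor gene of the pheromone and osmotic stress pathways, was among the 6 highest and was not delayed. Its median-divided ratio in strain B was 1.364, 1.501, 1.45, 1.215 and 1.091 at 30, 35, 40, 45 and 50 minutes, and in strain D 1.348, 1.437, 1.524, 1.475 and 1.352. Trep was 27.7 minutes in strain B and 27.3 in strain D. The peak at 267001 to 268000 on chromosome II, beside the glutaredoxin gene GRX7, was delayed by 2.07 minutes, and those beside HXT7 (a hexose transporter gene, chromosome IV, 1156001 to 1157000) and within FAB1 (a phosphoinositide kinase gene, chromosome VI, 185001 to 186000) by 1.46 and 0.97 minutes.

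Other peaks of strain B stood out less in strain D. The peak at 259001 to 260000 on chromosome XIII, beside the tRNA gene YNCM0009C, had 1.359, 1.45, 1.39 and 1.248 at 30, 35, 40 and 45 minutes in strain B and 1.079, 1.183, 1.27 and 1.26 in strain D. Its Trep moved from 25.8 to 33.9 minutes. At 459001 to 460000 on chromosome IV, within SOK1, strain B had 1.206 at 30 minutes and 1.368 at 35, and strain D 0.975 and 1.076, with a delay of 7.95 minutes. At 621001 to 622000 on chromosome II, within BEM1, a scaffold gene of cell polarity, strain B had 1.193 and 1.172 and strain D 1.005 and 1.031, with a delay of 10.2 minutes. At 419001 to 420000 on chromosome XVI, within UBP16, strain B had 1.183 and 1.19 and strain D 1.0 and 1.059, with a delay of 10.9 minutes. The peak on chromosome XII at 732001 to 733000 (YLR302C) was delayed by 6.04 minutes.

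These peaks were named for their difference, and their values are a description. Over 30, 35, 45 and 50 minutes the mean of strain D was below that of strain B at 68 of 80 peaks and above it at 12, and below it in 47.5% of all bins. After division by the 15- and 80-minute profiles it was below at 58 and above at 22, and below in 45.4% of all bins. For the tRNA gene peak on chromosome XIII the mean difference was -0.117 before and -0.007 after that correction, and for STE50 0.110 and 0.065. At SOK1 it was -0.114 and -0.086, at BEM1 -0.123 and -0.058, and at UBP16 -0.118 and -0.061. The other high peaks lay within GLC3 (chromosome V, 134001 to 135000) and beside YGR161W-B (VII, 811001 to 812000), AVL9 (XII, 377001 to 378000) and the tRNA gene YNCN0010C (XIV, 561001 to 562000), with delays of 3.18, 4.07, 4.11 and 7.06 minutes. The peak within MNN14 on chromosome X, 552001 to 553000, was delayed by 2.97 minutes.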

How the data were processed

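DNA of synchronised cultures was sequenced, and the 22 tables of strains B and D were used, with 22 of strains A and C for replication order and peaks. The authors deposited ratios, per the file headers reads per 1-kb bin of the S-phase library over those of the G1 library of the strain, multiplied by a scale factor. How the factor was set is not given in the sources used here. The submitters' processing notes name Bowtie2 2.2.6, SAMtools 1.7.2, bedtools 2.26.0 and the build sacCer3. The ChIP samples were not analysed here.

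For bins listed in all 22 tables, the deposited ratios were averaged over 5 kb (at least 3 bins) and converted to Trep. Trep was read without division by the library median, so the scale factors enter it. Ratios divided by the library median and averaged in the same way served for the called bins, the peaks and the matching of profiles. Python 3.11.15, numpy 2.4.6, pandas 2.3.3 and scipy 1.17.1 were used. The measures were checked on simulated data. Positions are those of the tables, counted from 1. The gene nearest to a bin's centre within 5 kb comes from RefSeq's table of assembly R64, which sacCer3 also denotes, so names only were used. Annotated origins, centromeres and sequences were not used here. Members, lists and measures were chosen with earlier results of these data known. Named loci are the 5 bins of largest and 5 of smallest Trep difference, at least 30 kb apart and 10 kb from an end. They also shifted the same way in relative timing, the area under the median-divided ratio, where a smaller area is later. Named peaks are the 6 highest of strain B and the 5 most and the 5 least lowered in strain D.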

Additional observations from a re-analysis of the deposited data

Results flagged for a closer look

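With 1 library per strain and minute, none of these differences between the SLD3 backgrounds was tested. Each is listed because the difference had one sign in sld3-R(2A) cells (D minus B) and the other in SLD3 cells (C minus A). For every strain the early and late bins are those of strain B. The scale factor differed by 0.031 (D minus B) and -0.082 (C minus A) at 30 minutes, and by -0.078 and 0.009 at 60 minutes. The early-to-late ratio differed by -0.003 and 0.036 at 15 minutes, by -0.191 and 0.263 at 40 minutes, and by -0.017 and 0.373 at 45 minutes. The same minute is not the same point of S phase in the 2 backgrounds: at 40 minutes the factor was 1.801 in strain A and 1.671 in strain C, against 1.573 in strain B and 1.425 in strain D.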

How the results depend on the processing

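No paired analysis was possible because each strain and minute has 1 library. A value counted as moved when it changed by over 1.5 times, or, for the median Trep difference, by more than its standard deviation of 1.46 minutes over chromosomes. Of 51 values under other settings 36 stayed, 15 moved and 0 reversed. Common factors gave a median Trep difference of 2.45 minutes, a decile gap of 2.64 and a rise-time difference of 3.13. Without smoothing the gap was 3.09 minutes. At a fold of 1.2, bins called in either direction were 0, 102, 367 and 577 at 15, 30, 45 and 50 minutes, against 69, 2197, 3236 and 4869. Single 1-kb bins gave 2346 and 3583 at 15 and 30 minutes, and the 15-minute denominator 0 at 15 minutes by construction. The difference at peaks was -0.114 at 30 minutes and 0.026 at 50. It was -0.073 at 30 minutes at peaks of strain A. At 50 minutes it was 0.055 with a prominence of 5 times the noise, 0.041 at peaks of strain C and 0.041 with the 15- and 80-minute denominator, the last 2 chosen after seeing the data.

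Leaving out 1 time point in turn gave ranges of 4.14 to 4.95 minutes (median Trep difference), 2.28 to 5.58 (decile gap), 4.99 to 6.56 (lag of the early-to-late ratio), 4.39 to 5.12 (range over chromosomes), 4.29 to 7.65 (rise time), -0.12 to -0.114 and 0.026 to 0.055 (peaks at 30 and 50 minutes), and 4.01 to 4.47 and 4.54 to 5.1 (standard deviation of relative timing, 4.27 in B and 4.92 in D). Of these 97 values 3 moved: the gap to 2.28 without 50 minutes and 3.24 without 60 minutes, and the peaks at 50 minutes to 0.055 without 40 minutes, the time of the call. Planned measures at annotated origins were not run. Depth is unknown, so its limit on these values could not be given.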
